A study of Mus musculus with 165 samples.

Results

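Hmgcs1, Mvd, Idi1, Fdps, Fdft1, Sqle, Lss and Cyp51 encode enzymes of cholesterol biosynthesis and were followed in PUER cells over time courses of macrophage and neutrophil differentiation. The genes were taken by symbol from the normalized RNA-Seq table, as 8 of its 36255 genes, and all 8 passed the filter on low values. PUER is a progenitor line from mice lacking PU.1 (genotype Spi1-/-), a transcription factor that myeloid cells need. As the source of the line the study names fetal liver in one passage and bone marrow in another. The line expresses a fusion of PU.1 with the hormone-binding part of the estrogen receptor, whose activity is switched on by 4-hydroxy-tamoxifen (OHT), and every group shares this genotype and fusion. The line is a single cell culture model, and no value below comes from primary macrophages or neutrophils.

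The libraries fell into 56 groups. Undifferentiated cells (3 libraries) grew in IL3 without OHT. In the IL3-OHT course these cells received 200 nM OHT and were sampled at 27 time points from 1h to 168h (81 libraries). In the other course IL3 was replaced by GCSF for 48h, which gave GCSF 0h (3 libraries, sampled before OHT), and 100 nM OHT was then added and the same 27 time points were sampled in GCSF-OHT (78 libraries). The OHT doses thus differed between the courses as the cytokines did, and these cannot be told apart. There were 3 libraries in 53 groups and 2 in the other 3 groups, GCSF-OHT 96h, 112h and 152h. Medium was partly renewed, with new OHT, 3 times (40h, 88h, 136h). Each time point was grown on its own plate, so plate and time cannot be told apart either, and the p-values measure the spread between wells of the same line.

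Cholesterol is built from acetyl-CoA. Hmgcs1 makes HMG-CoA on the way to mevalonate, and Mvd, Idi1 and Fdps turn phosphorylated mevalonate into isopentenyl units and farnesyl diphosphate, which also feeds protein prenylation and the side chains of dolichol and ubiquinone. Fdft1 joins farnesyl units to squalene, the committed step towards sterols, Sqle oxidises squalene, Lss closes the ring to lanosterol and Cyp51 removes a methyl group from lanosterol. When sterols in the endoplasmic reticulum are low, SCAP carries the transcription factor SREBP-2 (gene Srebf2) to the Golgi, where it is cut and set free to bind sterol regulatory elements in promoters of this pathway. Insig proteins hold SCAP back when sterols are plentiful. Macrophages are known for taking up and exporting large amounts of cholesterol.

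Promoters were available in the RefSeq table (GRCm38.p6) for 5 of the 8 genes, Hmgcs1, Mvd, Idi1, Lss and Cyp51, as 300 bases that run from 250 before to 50 after the gene start. The CCAAT box (CCAAT or its reverse complement ATTGG), where NF-Y binds beside SREBP in many sterol genes, was in 5 of these 5 and in 37.4% of all 32851 promoters of that length. A sterol regulatory element spelled TCACCNCA (reverse complement TGNGGTGA) was in 2 of the 5, Hmgcs1 and Cyp51, and in 4.42% of all promoters. The PU.1 motif GAGGAAGT (reverse complement ACTTCCTC) was in 0 of the 5 and in 3.2% of all promoters. These matches describe letters in a window and not binding. Shown are the promoters of Hmgcs1 (chr13:119690101-119690400, + strand) and Cyp51 (chr5:4104648-4104947, - strand), which hold both motifs, and that of Idi1 (chr13:8885356-8885655, + strand), the gene whose course was least like those of the other 7. Sequences run 5′ to 3′ on the gene's strand, and capitals mark CCAAT boxes and sterol regulatory elements.
Hmgcs1: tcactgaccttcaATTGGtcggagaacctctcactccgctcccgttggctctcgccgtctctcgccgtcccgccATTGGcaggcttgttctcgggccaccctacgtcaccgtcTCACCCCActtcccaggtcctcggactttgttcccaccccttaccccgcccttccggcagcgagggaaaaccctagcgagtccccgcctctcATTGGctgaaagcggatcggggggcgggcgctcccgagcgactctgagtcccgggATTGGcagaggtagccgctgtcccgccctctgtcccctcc
Cyp51: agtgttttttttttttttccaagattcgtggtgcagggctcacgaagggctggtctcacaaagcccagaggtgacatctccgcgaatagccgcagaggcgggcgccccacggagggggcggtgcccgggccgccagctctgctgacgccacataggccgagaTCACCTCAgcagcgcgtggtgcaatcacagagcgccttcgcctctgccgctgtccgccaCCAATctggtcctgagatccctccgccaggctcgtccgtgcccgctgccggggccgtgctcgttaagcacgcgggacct
Idi1: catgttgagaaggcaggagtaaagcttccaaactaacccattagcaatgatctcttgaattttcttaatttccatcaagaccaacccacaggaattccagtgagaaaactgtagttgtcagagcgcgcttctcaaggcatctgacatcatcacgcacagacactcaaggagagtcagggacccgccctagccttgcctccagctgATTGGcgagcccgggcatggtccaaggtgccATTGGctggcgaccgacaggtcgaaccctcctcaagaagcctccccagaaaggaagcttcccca

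Reads on genes ranged from 14600246 to 33147945 per library, and 1 read was worth 0.652 to 1.84 normalized counts, so each of the 8 genes lay far above the 3-read floor of 1.96 to 5.51. Of the macrophage markers, 7 of 8 were called higher at IL3-OHT 168h than in undifferentiated cells (10.2% of all genes tested were), but Csf1r, the receptor that defines the lineage, was near the floor at both (means of 4.91 and 8.63). At GCSF-OHT 168h 5 of 10 neutrophil granule markers were called higher (12.1% of all genes) and 4 lower (12.6%) than at GCSF 0h, while 7 of 8 macrophage markers were called higher there too. The summed level of 5 mast cell and basophil markers was at most 217.9 normalized counts in undifferentiated libraries, 251.4 to 271.2 at GCSF 0h, 48.7 to 62.2 at IL3-OHT 168h and 129.1 to 147.6 at GCSF-OHT 168h, most of it from Mcpt8, with Fcer1a at 0 in all 4 groups. That of 4 erythroid markers ran from 24.5 to 52.3 over the libraries of those groups, with Hba-a1 and Hbb-bt at 0 in each. That of 4 lymphoid markers was 53.2 to 69.6, 0.9 to 7.1, 22.6 to 41.5 and 1.3 to 9.8 in the same order, nearly all from Il7r, with Cd3e and Ebf1 at 0 in each. The part of such cells in the sterol genes' differences was not tested. In such bulk samples fewer cells of a type and less RNA per cell cannot be told apart.

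Differences below are on the log2(normalized count + 1) scale with their standard error, and a gene was called when its adjusted p was under 0.05 and its difference exceeded 0.58 in size. The exchange of IL3 for GCSF, before any OHT, came with lower levels of Mvd, Cyp51, Sqle and Fdft1. The same undifferentiated libraries stand for the cells before GCSF and for the start of OHT in IL3. No other group was sampled in IL3 without OHT, so washing, reseeding and time in culture cannot be told apart from the cytokine here. Of the 8 genes, 4 were called lower and 0 higher at GCSF 0h against undifferentiated cells, where 20.6% of the 17439 genes tested were called lower and 13.0% higher. The members' median difference was -0.61 and that of all genes tested -0.09. Mvd (chr8:122433601-122443422, GRCm38), which makes isopentenyl diphosphate, had 1906.4, 1850.3 and 1880.1 normalized counts in the undifferentiated libraries and 602.5, 600.3 and 611.4 in those of GCSF 0h. The groups were well apart, and Mvd fell by 1.63 ± 0.11 (adjusted p = 7.47e-29). Cyp51 (chr5:4081145-4104746) read 1554.5, 1614.0 and 1715.8 before and 710.7, 700.3 and 748.4 after GCSF, a difference of -1.18 ± 0.09 (adjusted p = 7.77e-23). Sqle (chr15:59315077-59331192), the squalene epoxidase and a slow step of the sterol branch, differed by -1.08 ± 0.07 (adjusted p = 1.02e-29) and Fdft1 (chr14:63145150-63179578) by -0.81 ± 0.12 (adjusted p = 1.29e-09).

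Hmgcs1 (chr13:119690379-119708260) and Idi1 (chr13:8885501-8892451) were at -0.41 ± 0.07 and -0.37 ± 0.10, below the fold required, and Lss (chr10:76531588-76557138) was at -0.05 ± 0.10. Fdps (chr3:89093588-89101959) went the other way without reaching the fold, with 926.4, 928.7 and 860.3 in undifferentiated cells, 1079.4, 1253.7 and 1326.2 at GCSF 0h and a difference of 0.43 ± 0.11. Every GCSF 0h library lay below every undifferentiated library for 6 of the 8 genes (34.5% of all genes tested did so) and above for Fdps (27.4%). Among 13 other genes of cholesterol synthesis, 4 were called lower and 1 higher, with Msmo1, a sterol demethylase, at -1.44 ± 0.10 and Ebp at 0.84 ± 0.09. Srebf2 (-0.82 ± 0.09) and Insig1 (-0.81 ± 0.08) were called lower as well, and Scap was called higher (0.94 ± 0.09). In the same comparison 8 of 9 proliferation markers were called higher, and their summed level was 19897.7 to 20964.7 in undifferentiated libraries and 50454.3 to 55573.3 at GCSF 0h. The part of cell cycling in the sterol genes' differences was not tested.

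**Figure D1:**
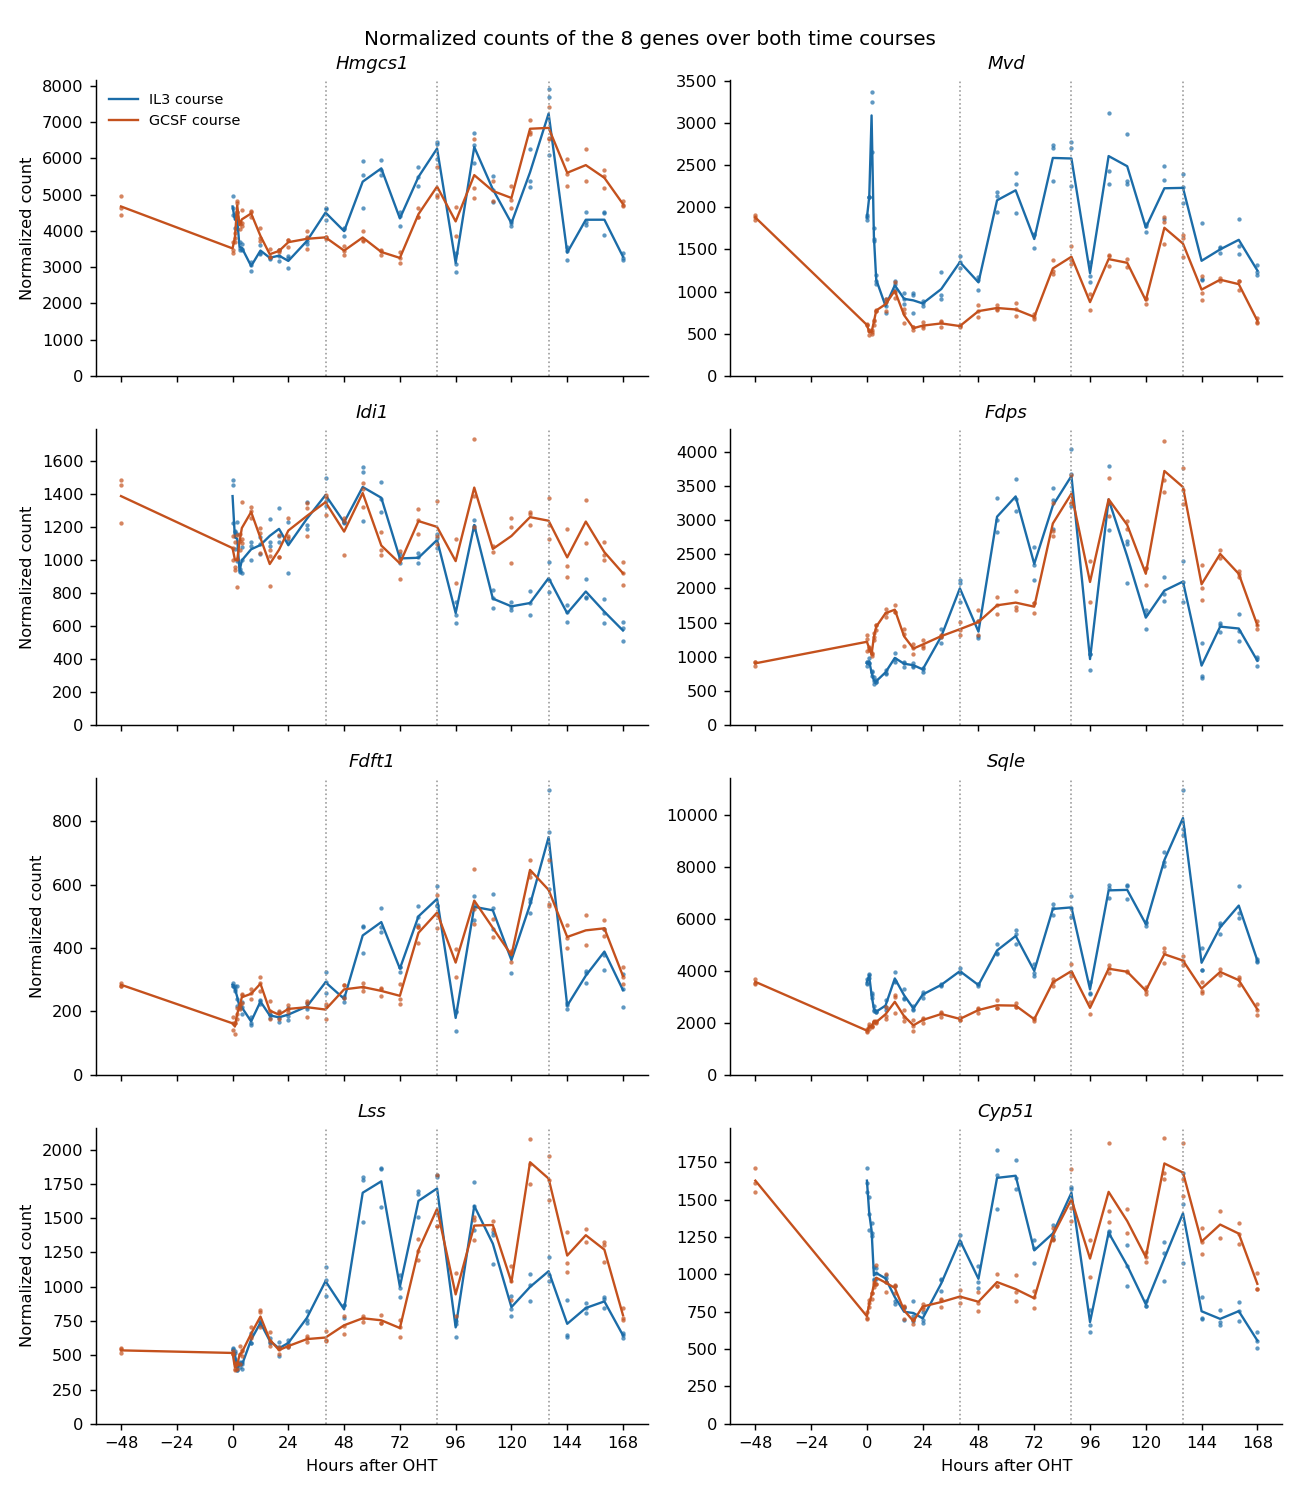
Normalized counts of the 8 genes (y axis, each panel from 0) against hours after OHT (x axis) in the IL3 course (blue) and the GCSF course (orange). Points are libraries, lines join group means, dotted lines mark medium replacement at 40h, 88h and 136h, and undifferentiated cells are drawn at 0h of the IL3 course and 48h before OHT in the GCSF course. The blue lines drop at 96h for all 8 genes, as for Fdps from a mean of 3644.1 at 88h to values of 814.1 to 1044.1.

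After OHT in IL3 several of the genes fell within 8h, and Fdps, Lss, Sqle and Fdft1 rose later. Over the 27 time points and 8 genes, 47 comparisons with undifferentiated cells were called higher and 42 lower, where 26.6% of such comparisons were called over all genes tested. At 8h 4 of the 8 genes were called lower (17.9% of all genes) and 0 higher (11.8%), Mvd by -1.18 ± 0.11, Fdft1 by -0.76 ± 0.12, Cyp51 by -0.74 ± 0.09 and Hmgcs1 by -0.62 ± 0.07. Mvd did so after a brief rise, with 3368.2, 3243.6 and 2655.8 at 2h against 744.4, 911.3 and 834.0 at 8h, and its 2h difference from undifferentiated cells was 0.71 ± 0.11 (adjusted p = 8.98e-09). None of the other 7 genes was called higher at 2h, as 5.09% of all genes were.

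The genes differed from each other in IL3, with differences from undifferentiated cells of -1.18 to 0.20 at 8h and -0.48 to 1.14 at 40h. Fdps and Lss, the lanosterol synthase, were called higher than in undifferentiated cells at 14 time points each and never lower. Fdps reached 3680.0, 3209.3 and 4043.0 at 88h, above every undifferentiated library, a difference of 2.00 ± 0.11 (adjusted p = 7.79e-36, with 12.0% of all genes called higher). Lss had 1869.5, 1856.0 and 1581.2 at 64h against 512.9, 543.1 and 550.7 in undifferentiated cells (1.72 ± 0.10, adjusted p = 7.46e-34, with 12.4% of all genes called higher). Sqle and Fdft1 peaked later, at 136h, with 10934.7, 9464.2 and 9209.7 for Sqle (1.46 ± 0.07) and 897.4, 766.3 and 586.4 for Fdft1 (1.38 ± 0.12), where 13.1% of all genes were called higher. Idi1 and Cyp51 were never called higher in this course and were called lower at 9 and 16 time points. Hmgcs1 was called higher at 136h (0.62 ± 0.07) and lower at 8h and 96h.

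In GCSF the comparisons were made with GCSF 0h, where Mvd, Fdft1, Sqle and Cyp51 were already below undifferentiated cells. Of the same number of comparisons as in IL3, 84 were called higher (8.37% over all genes) and 0 lower (6.97%), and since the starts differ, the difference in counts between the courses was not tested. The highest group mean of Mvd in GCSF was 1757.1 at 128h, and its mean in undifferentiated cells was 1878.9. At 12h 4 of the 8 genes were called higher (7.57% of all genes), Fdft1 by 0.83 ± 0.12, Mvd by 0.74 ± 0.11, Sqle by 0.72 ± 0.07 and Lss by 0.59 ± 0.10, and at 16h, 20h, 24h, 32h and 40h none was. Fdft1, the squalene synthase, was the only one of the 8 called before 12h, at 4h and 8h. Between 72h and 80h 6 of the 8 rose at once (1.22% of all genes were called higher in that step), all but Hmgcs1 and Idi1. For Mvd the libraries read 677.0, 693.0 and 729.2 at 72h and 1206.2, 1240.2 and 1377.2 at 80h. The medium had last been replaced at 40h.

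At 128h 7 of the 8 genes were called higher than at GCSF 0h (12.2% of all genes). Fdft1 had 140.5 to 180.6 normalized counts at GCSF 0h and 623.6, 637.6 and 678.4 at 128h, without overlap (2.00 ± 0.12, adjusted p = 1.12e-31). Lss differed by 1.88 ± 0.10, Fdps by 1.61 ± 0.11, Mvd by 1.53 ± 0.11, Sqle by 1.45 ± 0.07, Cyp51 by 1.27 ± 0.09 and Hmgcs1 by 0.96 ± 0.07. The highest group mean of the GCSF course fell at 128h for 6 of the genes, and at 136h for Hmgcs1, whose means at 136h (6837.0 ± 494.2, SD) and 128h (6812.7 ± 201.9) did not differ beyond their spread. Idi1, which isomerises isopentenyl diphosphate, was never called in GCSF. Its largest difference from GCSF 0h was 0.41, although its change over the course had an adjusted p of 1.86e-10 in the moderated F test. Between consecutive time points 39 of the genes' steps were called in IL3 (5.19% over all genes) and 26 in GCSF (1.81%), the latter 14 without replicate 2 of every group. By the moderated F test with the same fold, 8 of 8 genes changed over the IL3 course (70.3% of all genes) and 7 of 8 over the GCSF course (47.5%).

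**Figure D2:**
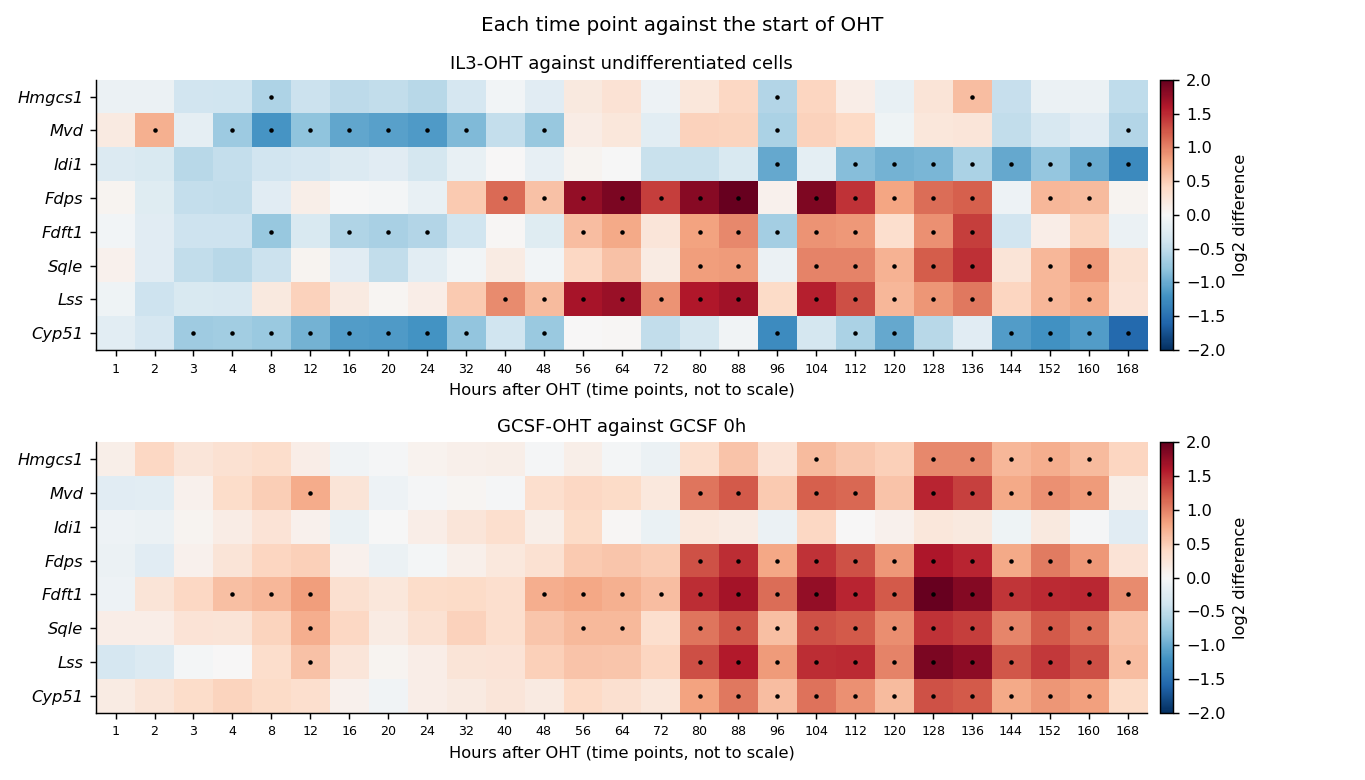
Log2 difference of each time point from the start of OHT (colour, red higher and blue lower) for the 8 genes (rows) at the 27 time points (columns, not to scale), for IL3-OHT against undifferentiated cells and GCSF-OHT against GCSF 0h. Black dots mark called differences. Called values in GCSF-OHT are all positive, while Cyp51 and Idi1 in IL3-OHT are called only below 0.

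At 168h, the last time point, few of the genes were still called above the start of OHT. The members' median difference from the start was -0.31 in IL3 and 0.40 in GCSF. At 160h it had been 0.16 and 0.85, so the endpoint lay below the time point before it. Against undifferentiated cells, 3 of the 8 genes were called lower at IL3-OHT 168h (15.1% of all genes) and 0 higher (10.2%). Cyp51 had 616.4, 551.7 and 504.3 (-1.55 ± 0.09, adjusted p = 2.50e-31), Idi1 511.9, 586.5 and 624.0 (-1.27 ± 0.10, adjusted p = 9.85e-22) and Mvd 1319.4, 1235.2 and 1198.0 (-0.59 ± 0.11, adjusted p = 7.31e-07). The call of Mvd was lost without replicate 3 of every group (-0.56) and in edgeR (-0.53). Hmgcs1 was at -0.51 ± 0.07, and Sqle, Lss, Fdps and Fdft1 were between -0.11 and 0.30. Of the other synthesis genes 3 were called lower and 1 higher, including Lbr at 0.70 ± 0.04 and Msmo1 at -0.67 ± 0.10. Of the 13 uptake genes tested, 5 were called higher and 2 lower. The scavenger receptor Msr1 went from 2.36 to 9.16 normalized counts, near the floor, to 258.9 to 271.5. The endocytic receptor Lrp1 was at 1.15 ± 0.12.

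At GCSF-OHT 168h, against GCSF 0h, Fdft1 (339.4, 285.6 and 308.0, a difference of 0.94 ± 0.12, adjusted p = 7.35e-12) and Lss (846.1, 756.3 and 773.5, 0.61 ± 0.10, adjusted p = 1.41e-08) were called higher, 2 of 8 genes (12.1% of all genes), and none lower (12.6%). Without replicate 1 of every group Lss was at 0.55 and 1 of the 8 was called, while Sqle (0.57 here) was called without replicate 2 (0.60) or 3 (0.61). The libraries of 168h lay above those of GCSF 0h for 7 of the genes (27.7% of all genes) and below for Idi1 (29.2%). Hmgcs1, Cyp51, Sqle and Fdps had differences of 0.27 to 0.57 and Mvd one of 0.11 ± 0.11. Among the uptake genes Msr1 was at 0 in all 3 libraries of GCSF 0h and at 90.5 to 130.1 at 168h, the fatty acid and lipoprotein receptor Cd36 was at -2.63 ± 0.27 and Lrp1 at 1.99 ± 0.12. Over the whole GCSF protocol, from undifferentiated cells to GCSF-OHT 168h, Mvd (-1.52 ± 0.11), Cyp51 (-0.80 ± 0.09) and Idi1 (-0.59 ± 0.10) were called lower (23.5% of all genes) and Fdps (0.69 ± 0.11) higher (15.5%). The call of Idi1 was lost without replicate 2 of every group (-0.56) and in edgeR (-0.54). This comparison shares its libraries with those above.

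The difference between 168h and the start of OHT itself differed between the cytokines for 5 of the 8 genes. Neither course has a 168h group without OHT, so OHT and time cannot be told apart in it. The difference of differences, GCSF minus IL3, was called above 0 for Cyp51 (1.93 ± 0.13, adjusted p = 1.02e-26), Idi1 (1.05 ± 0.15), Fdft1 (1.05 ± 0.17), Hmgcs1 (0.94 ± 0.10) and Mvd (0.70 ± 0.15), where 14.5% of all genes were called above 0. Lss, Sqle and Fdps were at 0.34 ± 0.13, 0.27 ± 0.10 and 0.21 ± 0.15. GCSF 0h, the start of that course, was itself called below undifferentiated cells for Mvd, Fdft1, Sqle and Cyp51. Insig1 (1.34 ± 0.11) and Srebf2 (0.59 ± 0.12) were called above 0 too, while Srebf1 (-0.10 ± 0.13) and Dhcr7 (0.19 ± 0.14) were not.

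GCSF-OHT was also compared directly with IL3-OHT in windows of time points. At 48h to 88h all 8 genes lay below 0 (lower in GCSF), with a median of -0.41 against -0.03 over all genes tested, and at 96h to 136h 6 of the 8 lay above 0. In the former window Idi1 was within its standard error of 0 (-0.02 ± 0.04). Mvd was lower in GCSF in each of the 5 windows and called so in the first 4, by -1.29 ± 0.05 at 1h to 8h, -0.59 ± 0.04 at 12h to 40h, -1.08 ± 0.04 at 48h to 88h and -0.68 ± 0.04 at 96h to 136h. The call at 12h to 40h was lost without replicate 1 of every group, where 0 of the 8 genes were called. Sqle was called lower from 48h on, by -0.79 ± 0.03, -0.81 ± 0.03 and -0.64 ± 0.03 in the last 3 windows. Fdps was called higher in GCSF at 1h to 8h (0.79 ± 0.05), at 96h to 136h (0.59 ± 0.04) and at 144h to 168h (0.84 ± 0.05), and lay at -0.37 ± 0.04 at 48h to 88h. Lss was called lower at 48h to 88h (-0.60 ± 0.04). In the last window Cyp51 (0.78 ± 0.05) and Idi1 (0.62 ± 0.05) were called higher. Counts of called genes were 2, 1, 3, 3 and 4 of 8 in the windows in order, against 32.0%, 16.7%, 24.4%, 33.3% and 33.0% of all genes tested.

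**Figure D3:**
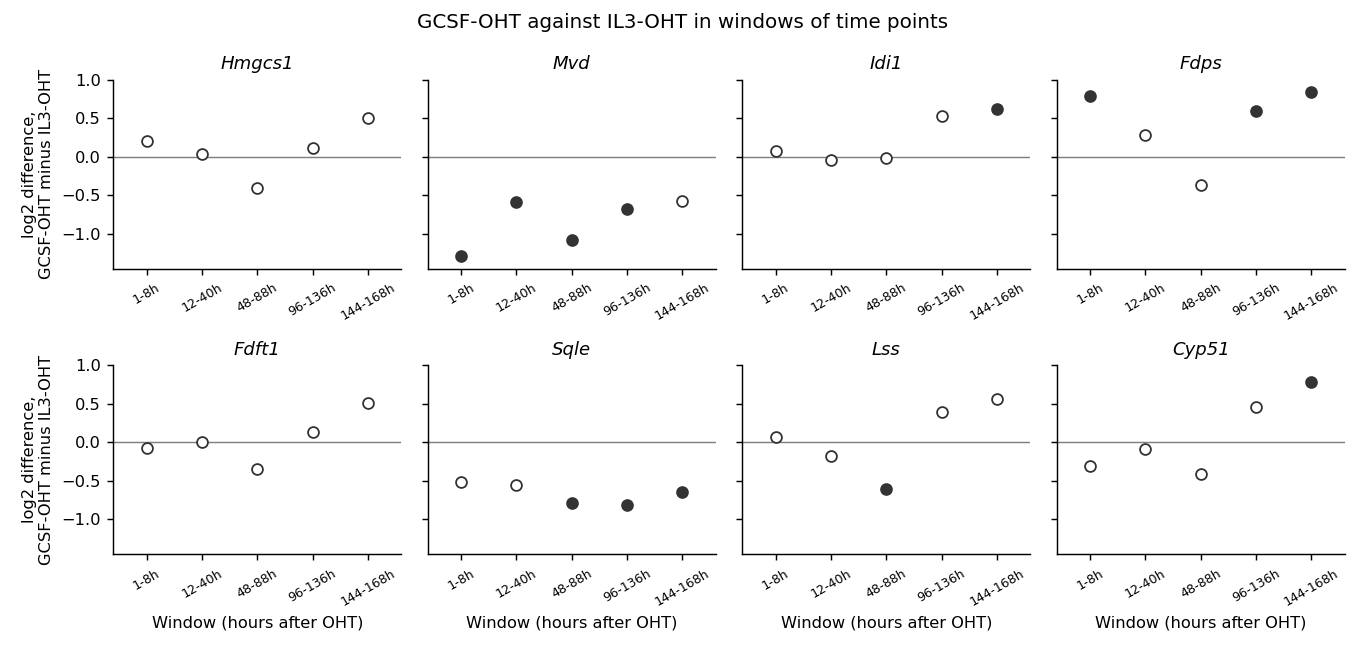
Log2 difference of GCSF-OHT from IL3-OHT (y axis, the same in all panels) in 5 windows of hours after OHT (x axis) for each of the 8 genes. Filled circles are called, open circles are not, and bars of 1 SE lie within the circles. Mvd and Sqle lie below 0 in all windows. The other 6 genes lie below 0 at 48h to 88h and above 0 at 96h to 136h, as for Lss at -0.60 and 0.39 and for Hmgcs1 at -0.40 and 0.11. Idi1 is within its SE of 0 at 48h to 88h (-0.02 ± 0.04).

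The time points 96h and 144h of the IL3 course, which the study left out of its own analysis, enter these windows. Without 96h and 144h in both courses, a choice made after the values were seen, 2 of 8 and 5 of 8 genes were called (34.4% and 31.5% of all genes). Fdps was at 0.48 ± 0.05 in the window from 96h and no longer called. Fdft1 turned to -0.03 there and Hmgcs1 was at 0.04 ± 0.03. Mvd in the window from 144h was at -0.63 ± 0.06 and called. At 144h to 168h all 9 proliferation markers were called higher in GCSF (median difference 1.38) as were 8 of 10 neutrophil granule markers. In that window 33.0% of all genes tested were called, higher or lower. The part of these markers in the sterol genes' differences was not tested.

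The sharpest feature of the IL3 course was a trough at 96h, the first sample after the second medium replacement. Every one of the 8 genes was called lower at 96h than the mean of 88h and 104h, where 8.17% of all genes were. The 3 libraries of 96h lay below all 6 of the neighbouring time points for all 8 genes (17.9% of all genes). Fdps showed the largest drop. At 96h its libraries read 1043.2, 1044.1 and 814.1, after 3680.0, 3209.3 and 4043.0 at 88h and before 3787.7, 3256.1 and 2859.4 at 104h, a difference of -1.84 ± 0.09 (adjusted p = 1.56e-37). Fdft1 had 595.4, 533.6 and 535.7, then 201.5, 198.6 and 136.2, then 564.2, 488.6 and 536.7 (-1.62 ± 0.10, adjusted p = 4.96e-29). Sqle went from 6853.2, 6048.3 and 6392.0 to 3576.3, 3134.4 and 3116.9 and back to 7303.3, 7161.8 and 6792.2 (-1.04 ± 0.06). For the remaining genes the differences were -1.23 ± 0.08 for Lss, -1.08 ± 0.09 for Mvd, -1.05 ± 0.08 for Cyp51, -1.02 ± 0.06 for Hmgcs1 and -0.78 ± 0.09 for Idi1. The members' median was -1.07 and that of all genes tested 0.00.

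At the other samples taken 8 h after medium replacement the trough was smaller. At 48h in IL3, Fdps (-0.85 ± 0.09), Lss (-0.66 ± 0.08) and Mvd (-0.60 ± 0.09) were called lower than their neighbours (0.843% of all genes), and all 8 genes lay below all 6 neighbouring libraries (8.13% of all genes). At 144h, Fdft1 (-1.14 ± 0.10), Fdps (-1.04 ± 0.09), Sqle (-0.80 ± 0.06) and Hmgcs1 (-0.71 ± 0.06) were called (6.76%). The members' median step was -0.98 from 136h to 144h and only 0.30 from 144h to 152h. Around 96h it was -1.13 from 88h and 1.10 to 104h. By the median, 144h was thus more a step down than a trough. Replicate 3 of IL3-OHT 144h stood above the others for several genes, such as Fdps with 721.8, 696.0 and 1196.9, and without replicate 3 of every group 7 of the 8 were called at 144h. Taken as the mean of 48h, 96h and 144h, 7 of 8 genes were called lower in IL3 (4.47% of all genes), from -0.66 ± 0.05 for Cyp51 to -1.24 ± 0.05 for Fdps, and Idi1 was at -0.44 ± 0.05. Of all genes tested, more were called higher (1153) than lower (779) in that contrast. In the same contrast 2 of 9 proliferation markers were called higher, Mcm5 (0.79 ± 0.04) and Mcm2 (0.72 ± 0.04). At 96h itself 5 of 9 were, where 3056 of the 17439 genes tested were called, 1424 of them lower. The summed level of the 9 markers was 26779.6 to 28180.5 at 96h, 17728.3 to 19032.2 at 88h and 18500.7 to 20117.1 at 104h. The part of these markers in the trough was not tested.

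In GCSF the same contrast, the mean of 48h, 96h and 144h, was between -0.42 ± 0.06 (Fdps) and -0.22 ± 0.04 (Hmgcs1), below 0 for all 8 genes, with adjusted p values of 0.00547 or less, but under the fold for each, so that 0 of 8 were called (1.19% of all genes were called lower). At GCSF-OHT 96h, which has 2 libraries, 5 of the 8 were called lower (3.53% of all genes), Fdps by -0.69 ± 0.11, Lss by -0.69 ± 0.10, Mvd by -0.68 ± 0.11, Sqle by -0.65 ± 0.07 and Fdft1 by -0.59 ± 0.12. For Fdps the 96h libraries read 2394.0 and 1795.0, below those of 88h (3655.4, 3249.1 and 3251.7) and 104h (3242.8, 3060.5 and 3610.9). The second library of 96h was the lower for each of the 8 genes, and without replicate 2 of every group 0 were called. At GCSF-OHT 48h the differences were -0.24 to 0.18 and none was called. The difference between the cytokines in the mean contrast was called for Fdft1 (0.89 ± 0.09, adjusted p = 1.63e-16) and Fdps (0.82 ± 0.08, adjusted p = 3.35e-17), 2 of 8 genes (1.90% of all genes were called above 0). The other 6 were at 0.13 to 0.46 and were not called.

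**Figure D4:**
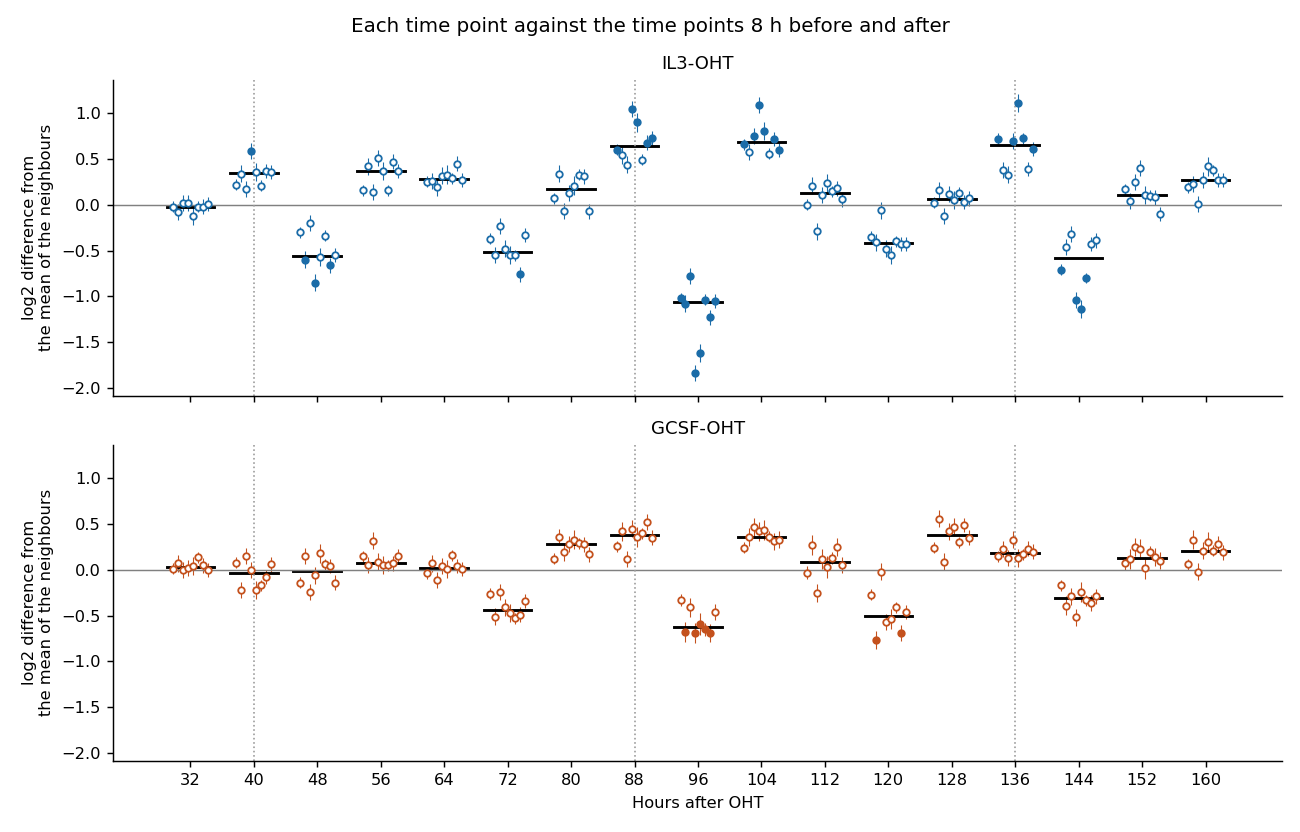
Log2 difference of each time point from the mean of the time points 8 h before and after (y axis) against hours after OHT (x axis) for IL3-OHT (upper) and GCSF-OHT (lower). Each circle is a gene with 1 SE, in the order Hmgcs1, Mvd, Idi1, Fdps, Fdft1, Sqle, Lss, Cyp51 from left to right, filled if called, black bars are medians of the 8 and dotted lines mark medium replacement. In IL3-OHT the 8 genes lie at -1.84 to -0.78 at 96h, and shallower lows stand at 48h, 72h, 120h and 144h.

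Lows were also found where no medium had been replaced. At 72h and 120h, a pair of time points set apart after the values were seen, the mean difference from the neighbours was below 0 for all 8 genes in both courses. In IL3 it ran from -0.59 ± 0.06 for Lss to -0.14 ± 0.06 for Idi1, with 1 of 8 called (1.01% of all genes were called lower). In GCSF it ran from -0.64 ± 0.07 for Mvd to -0.13 ± 0.06 for Idi1, with Mvd and Lss called, 2 of 8 (1.12%). In GCSF the members' medians were -0.48 at 72h and 120h and -0.31 at 48h, 96h and 144h. In IL3 the medians were -0.48 and -0.72. Since 72h and 120h were picked from the values, their depth cannot be weighed against that after medium replacement. The IL3 libraries lay below all neighbouring libraries for 7 of the 8 genes at 72h and for 6 at 120h. At IL3-OHT 144h, after medium replacement, they did so for 5. In GCSF this held for 1 gene at 72h and 6 at 120h. The shares of all genes for these are not given here. The 6 libraries of 120h carry another library name series than the rest, and those of 72h do not. From 160h to 168h Mvd (-0.73), Lss (-0.68) and Fdps (-0.60) fell once more in GCSF (1.49% of all genes). The high values at 88h, 104h and 136h in IL3 are partly set by the lows beside them, since each contrast uses its neighbours.

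Other genes of the pathway were also lower than at the neighbouring time points in the IL3 course. In the mean contrast of 48h, 96h and 144h, 6 of the 13 other synthesis genes were called lower (4.47% of all genes) and 0 higher (6.61%), with Msmo1 at -0.97 ± 0.05, Pmvk, the phosphomevalonate kinase, at -0.84 ± 0.06 and Acat2 at -0.80 ± 0.05. Dhcr7 (-0.65 ± 0.05) was called too. The list's median was -0.58 and that of all genes tested 0.01.

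Of the 13 uptake and trafficking genes tested, 4 were called lower and 1 higher in this contrast, against the same shares of all genes, with a median of -0.21. The HDL receptor Scarb1 was at -0.77 ± 0.04, the sterol carrier Stard4 at -0.69 ± 0.03 and Msr1 at 0.62 ± 0.18. Of 11 genes of SREBP control, Insig1 (-0.99 ± 0.04) and Srebf2 (-0.82 ± 0.04) were called lower and Srebf1 (-0.22 ± 0.05) was not. Both called genes are themselves targets of SREBP-2. Fatty acid synthesis genes had 3 of 12 called lower, Fads2 (-1.56 ± 0.07), Acss2 (-1.39 ± 0.06) and Fads1 (-1.01 ± 0.04). The isoprenoid branch, which leads from farnesyl diphosphate to prenylated proteins, dolichol and ubiquinone, had 0 of 11 called lower and Pdss1 called higher (0.61 ± 0.06). In the efflux list Abca1 (-0.64 ± 0.10), a cholesterol exporter, was called lower, 1 of 8 tested, and Abcg1 was at -0.19 ± 0.03. In GCSF 0 of 13 other synthesis genes were called (1.19% of all genes were called lower), with a median of -0.31, and Fads2 (-0.64 ± 0.07) and Abca1 (-0.62 ± 0.10) were called lower.

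**Figure D5:**
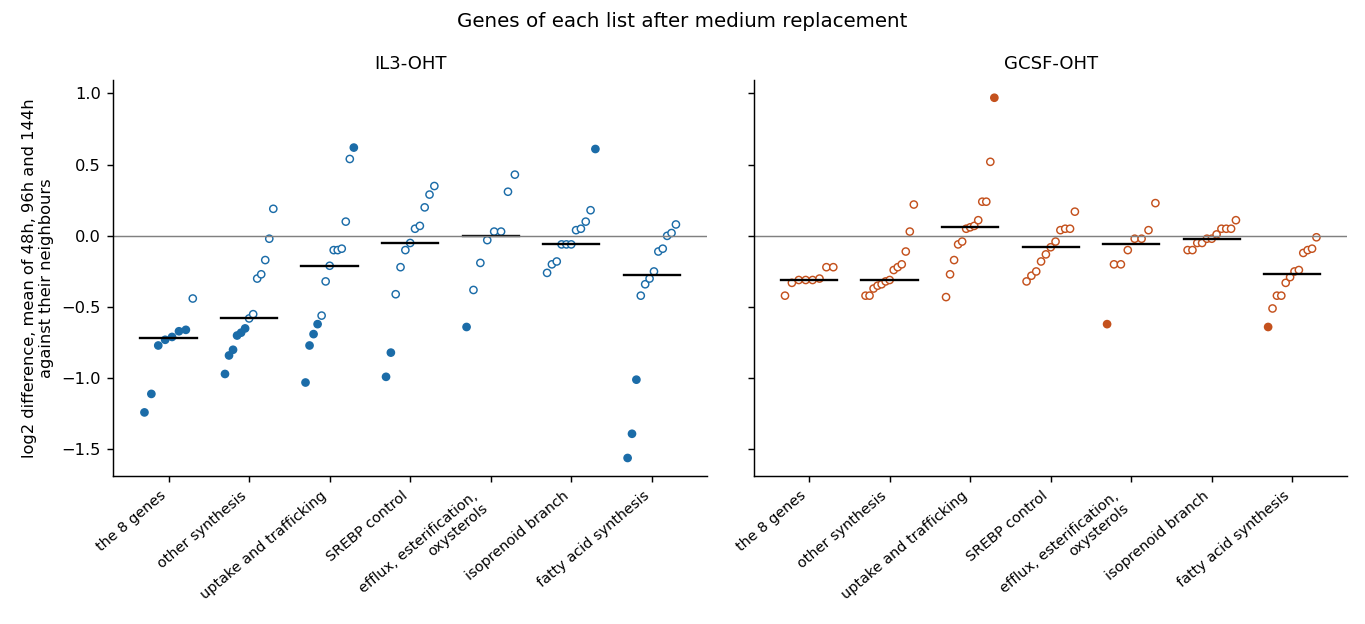
Log2 difference of the mean of 48h, 96h and 144h from their neighbours (y axis) for each gene of 7 lists (x axis) in IL3-OHT (left) and GCSF-OHT (right). Each circle is a gene, filled if called, and bars are list medians. In IL3-OHT the 8 genes have a median of -0.72 and the other synthesis genes -0.58, while the isoprenoid branch lies near 0.

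Over all 56 groups the 8 genes moved together to different degrees. The Pearson correlation of each gene with the mean of the other 7, over group means of log2 values, was 0.919 for Fdft1, 0.872 for Hmgcs1, 0.861 for Lss, 0.823 for Cyp51, 0.812 for Fdps, 0.652 for Sqle, 0.630 for Mvd and 0.135 for Idi1. The median over the 28 pairs was 0.643, and it was 0.668 over the 28 groups of the IL3 course and 0.928 over the 28 of the GCSF course. The lowest pair was Idi1 with Sqle (-0.278). These values describe groups that are neighbours in time and share a scaling, and they carry no p-value.

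Among 10638 genes with a mean of at least 50 normalized counts, those with a course most like the mean of the 8 included Pmvk (r = 0.913), Msmo1 (0.855), Scarb1 (0.839), Aacs (0.839), Insig1 (0.827), Srebf2 (0.814), Pdlim2 (0.802), Stard4 (0.802), Dhcr7 (0.798), Acss2 (0.795), Sh3gl1 (0.791), Sh3yl1 (0.787), Srebf1 (0.783) and Tm7sf2 (0.782). Of the 15 genes most like it, 11 were in the pathway lists. The median r over the 10638 genes was 0.001, and 9 genes (0.0846%) had an r over 0.8. Abca1 ranked 368 (0.607) and Abcg1 5341 (-0.001).

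All of the genes but Sqle share bases with others, counted over whole gene spans with their introns. How many of these bases lie in exons was not counted. The strand setting of the counting is not given in the sources used here. On the opposite strand, Mvd is overlapped over its whole length by Gm20388 (9822 bases). Lss shares 11268 bases with 4930483K19Rik, Hmgcs1 6190 with Gm48342 and Idi1 323 with Gm48574. These overlapping genes have no counts of their own here, so their part was not tested. Fdps shares 7512 bases with Gm43738, a protein-coding gene of the same strand. The differences of Gm43738 had standard errors of 0.38 to 1.33, so the split of reads between them is uncertain. Gm43738 was called higher at GCSF 0h against undifferentiated cells (2.21 ± 0.94, adjusted p = 0.0365), where Fdps was at 0.43. Fdft1 shares 774 bases with Ctsb on the opposite strand and Cyp51 shares 166 with Akap9. Ctsb was at -0.45 ± 0.04 at GCSF 0h against undifferentiated cells and at -0.06 ± 0.04 in the IL3 trough at 96h, where Akap9 was at -0.24 ± 0.07. At GCSF-OHT 168h against GCSF 0h Ctsb was called higher (0.61 ± 0.04, adjusted p = 1.11e-25) beside Fdft1 (0.94), and Akap9 was at 0.40 ± 0.08, not called, beside Cyp51 (0.38). The part of the shared bases in these values was not tested.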

How the data were processed

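The authors deposited normalized counts (a signal in units of reads divided by a DESeq2 size factor, from Salmon estimates on GRCm38 per the labels) for 36255 genes in libraries of polyA RNA. Whole reads were recovered for 100% of nonzero values (relative tolerance 1e-06). Genes with at least 5 normalized counts in at least 1 library were tested (17439) on log2(normalized count + 1) with limma 3.58.1 in R 4.3.3. Each group had a mean, all libraries shared the spread, and p-values were adjusted by Benjamini-Hochberg over all genes tested in each contrast. Genes were called at an adjusted p under 0.05 and a difference over 0.58 in size. The 8 genes were named throughout, with up to 3 called genes of largest difference per pathway list, preset pathway genes and the 15 most similar genes, except some that are not reported here. The 8 genes and the lists were chosen with earlier results of these data known. Alternatives were other pseudocounts, filters and scaling, leaving out replicates or time points, a replicate block, edgeR 4.0.16 and DESeq2 1.42.0. Leaving out 96h and 144h in both courses, and the contrast of 72h and 120h, were chosen after seeing the data. The tests were tested on simulated data.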

Additional observations from a re-analysis of the deposited data

Results flagged for a closer look

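A change between time points that differed between the cytokines drew attention in 7 cases, each by a test of the difference itself in limma, GCSF minus IL3. At 168h against the start of OHT it was 1.93 for Cyp51 (adjusted p = 1.02e-26), 1.05 for Idi1 (adjusted p = 5.26e-10), 1.05 for Fdft1 (adjusted p = 4.33e-08), 0.94 for Hmgcs1 (adjusted p = 5.05e-15) and 0.70 for Mvd (adjusted p = 3.32e-05). In the mean of 48h, 96h and 144h against their neighbours it was 0.89 for Fdft1 (adjusted p = 1.63e-16) and 0.82 for Fdps (adjusted p = 3.35e-17). The courses differ in OHT dose as well as in cytokine, which cannot be told apart.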

How the results depend on the processing

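The number of the 8 genes called stayed within 1.5 times under every alternative run except when a replicate number was left out of all groups. It then ranged from 1 to 3 for GCSF-OHT 168h against GCSF 0h (2 with all libraries), from 0 to 1 for the window 12h to 40h (1), from 4 to 7 for IL3-OHT 144h against its neighbours (4), from 0 to 6 for GCSF-OHT 96h (5), from 0 to 1 for GCSF-OHT 144h (0) and from 14 to 31 for the consecutive steps in GCSF (26). Signs reversed only for uncalled values, Lss at GCSF 0h against undifferentiated cells (0.01 in edgeR), Fdft1 at IL3-OHT 168h (-0.22 to 0.03 leaving out replicates) and Hmgcs1 at GCSF-OHT 168h against undifferentiated cells (-0.01 to 0.07). Of the other single-gene values, 770 stayed on the same side of the threshold, called or not, 6 gained a call and 5 lost one.

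Replicate numbers did not pair the samples, since deviations of same-numbered libraries correlated at -0.054 to 0.079 over 12 pairs. With the replicate block the consecutive steps in GCSF had 25 calls among the 8 genes, the other counts were as without it, and IL3-OHT 96h still had 8.

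Counts over all genes moved more. The window 1h to 8h had 5579 calls and 3632 with a mean of at least 10, the mean of 48h, 96h and 144h in IL3 had 1932 and 1287 with a pseudocount of 5, IL3-OHT 48h had 279, 113 without replicate 2 and 512 in edgeR, and the mean of 72h and 120h in IL3 had 335 and 162 with a pseudocount of 5. In GCSF the mean of 48h, 96h and 144h had 311 and 136 with a pseudocount of 5, 48h had 61 and 23 without replicate 1, and 96h had 811 and 425 without replicate 2. GCSF-OHT 144h (322) and the mean of 72h and 120h in GCSF (270) fell by over 1.5 times as well, without replicate 1 and with a pseudocount of 5, and GCSF-OHT 48h rose by as much in edgeR. edgeR and DESeq2 were not run for neighbour contrasts at other time points than 48h, 96h and 144h. The cause of these shifts was not tested.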

Other observations

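Late in the courses the lipid genes outside sterol synthesis also differed between the cytokines. In the window from 144h to 168h, 4 of 12 fatty acid synthesis genes were called higher in GCSF-OHT than in IL3-OHT and 2 lower (13.2% and 19.8% of all genes), with the desaturases Fads2 (2.29 ± 0.07) and Fads1 (0.99 ± 0.04), the elongase Elovl6 (1.31 ± 0.11) and the acetyl-CoA synthetase Acss2 (1.28 ± 0.06) above 0. Of 13 other cholesterol synthesis genes 5 were called higher and 0 lower, among them Nsdhl (0.95 ± 0.05) and Acat2 (0.93 ± 0.05). Of the 8 efflux genes tested 1 was called higher, Cyp27a1 (0.78 ± 0.05), and 2 lower, the exporter Abcg1 (-2.28 ± 0.03) and the lipoprotein Apoe (-0.77 ± 0.06). Cd36 (-1.09 ± 0.14) and Msr1 (-1.87 ± 0.18) were lower too. All 9 proliferation markers and 8 of 10 neutrophil granule markers were called higher in GCSF-OHT in this window, and their part in these differences was not tested. Fads1 is named beyond the 3 genes per list and was chosen after its value was seen.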
